A study of Mus musculus with 2 samples.

Results

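The circadian clock genes and their PAR-bZIP outputs were taken as all gene probes named Per1, Per2, Per3, Dbp, Tef, Nr1d1, Nr1d2, Cry1, Clock or Bmal1 (Arntl in the array design), which gave 10 genes of the 27845 gene names on the array, read by 20 of its 41174 gene probes. Tef and Clock had 4 probes each, Nr1d1 had 3, Per2 and Cry1 had 2, and Per1, Per3, Dbp, Nr1d2 and Bmal1 had 1. The RNA came from pancreatic lymph nodes, which drain the pancreas, of female NOD mice aged 16 weeks, a strain that develops autoimmune diabetes. There were 2 arrays. Cy5 carried RNA of 1 hyperglycemic animal per array, with more than 500 mg/dl of glucose in its blood, and Cy3 carried RNA pooled from 2 euglycemic animals with less than 200 mg/dl, which was common to both arrays. The labels give no treatment, no allele and no hour of tissue collection. The pool counts as 1 control sample with no spread of its own, and a dye effect on a single gene cannot be told apart from the group difference because the dyes were never swapped. The comparison asks which transcripts differ between nodes of hyperglycemic and euglycemic mice.

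The mammalian clock is a feedback loop of transcription. Bmal1 and Clock form a dimer that binds E-box motifs and drives the genes of the Period and Cryptochrome repressors, of the nuclear receptors Nr1d1 and Nr1d2 (REV-ERB alpha and beta) and of the PAR-bZIP factor Dbp. Period and Cryptochrome proteins feed back on that dimer, the Nr1d receptors repress Bmal1, and the PAR-bZIP factors Dbp, Tef and Hlf act on D-box motifs of output genes. Lymphocytes and lymph node stroma carry this clock, and Per1 is also a known target of the glucocorticoid receptor.

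The stretch of 250 bases before the RefSeq start (GRCm38.p6) is shown for the 4 genes whose probes read highest in the scanner-signal fit described below. It serves to show which of these stretches hold a motif of the loop, and bases outside them were not read. Of the Per1 starts only the first is shown. Capitals mark an E-box, CACGTG, or the related CACGTT read on either strand. Each runs 5′ to 3′ on the strand of the gene, at chr11:69098699-69098948 for Per1, chr15:81802423-81802672 and chr15:81811164-81811413 for both Tef starts, chr7:45704997-45705246 for Dbp and, on the minus strand, chr11:98775378-98775627 for Nr1d1.
Per1: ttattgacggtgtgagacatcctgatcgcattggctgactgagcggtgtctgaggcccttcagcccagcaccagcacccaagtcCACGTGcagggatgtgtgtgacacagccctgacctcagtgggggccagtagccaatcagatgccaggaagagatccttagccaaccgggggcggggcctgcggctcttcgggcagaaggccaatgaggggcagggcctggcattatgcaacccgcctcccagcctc
Tef, first start: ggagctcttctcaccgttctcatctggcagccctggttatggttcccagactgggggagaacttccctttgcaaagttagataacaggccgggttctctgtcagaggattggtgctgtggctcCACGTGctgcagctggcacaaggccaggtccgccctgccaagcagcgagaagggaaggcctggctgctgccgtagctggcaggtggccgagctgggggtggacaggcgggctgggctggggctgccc
Tef, second start: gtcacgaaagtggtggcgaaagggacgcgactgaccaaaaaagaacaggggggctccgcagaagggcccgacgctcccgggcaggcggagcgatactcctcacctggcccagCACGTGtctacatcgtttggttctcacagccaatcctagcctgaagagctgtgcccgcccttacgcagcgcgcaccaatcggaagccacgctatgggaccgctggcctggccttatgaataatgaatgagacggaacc
Dbp: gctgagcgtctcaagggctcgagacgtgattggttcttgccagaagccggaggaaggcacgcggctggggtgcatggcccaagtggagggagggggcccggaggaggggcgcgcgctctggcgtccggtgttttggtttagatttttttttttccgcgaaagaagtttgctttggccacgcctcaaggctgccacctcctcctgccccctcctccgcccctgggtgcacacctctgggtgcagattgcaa
Nr1d1: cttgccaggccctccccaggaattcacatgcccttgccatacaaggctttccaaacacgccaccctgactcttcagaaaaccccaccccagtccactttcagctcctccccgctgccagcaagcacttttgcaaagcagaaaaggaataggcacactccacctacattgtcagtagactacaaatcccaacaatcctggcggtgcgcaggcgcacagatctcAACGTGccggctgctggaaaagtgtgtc
RefSeq entries were found for 9 of the 10 genes (all but Per2), with 14 starts. CACGTG occurred in 4 of these 14 stretches, those of Per1, Cry1 and both Tef starts, and in 6.02% of all 32851 RefSeq stretches of the same length. It began 166 bases before the Per1 start and 127 and 138 bases before the Tef starts. CACGTT occurred in 2 of 14, those of Nr1d1 and Cry1, against 3.85% of all. The D-box, TTATGTAA or TTACGTAA, occurred in the Per3 stretch alone, as 2 copies, against 0.931% of all. The nuclear receptor core AGGTCA occurred in 3 of 14 (the first Per1 start, Nr1d2 and 1 Clock start) against 14.0% of all, and the CRE, TGACGTCA, in 0 of 14 against 1.55%. No match overlapped another, and both strands were read. The second Per1 start, the Dbp stretch, both Bmal1 starts and the Clock starts without AGGTCA held none of the 5 motifs. These matches are a description of the letters and not of binding.

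Whether a clock transcript could be compared at all depended on the signal over background in both channels. Over all gene spots the median Cy5 signal was 37.7 and 38.2 scanner units on arrays 1 and 2 over a local background of 35, and the median Cy3 signal was 234 and 81.2. Of the 20 clock probes, Cy5 was well above background on array 1 for 5 and on array 2 for 3, and Cy3 for 3 and 15. Among all gene spots, 14.5% and 16.4% were well above background in Cy5 on arrays 1 and 2, and 21.7% and 63.0% in Cy3. The software sets this flag after subtracting its own fitted surface, so a Cy3 spot far above its local background can lack it. None of the clock probes was saturated, and their Cy5 spots reached at most 49.6 units above their local background. The plot of signals by channel shows this for each probe.

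**Figure D1:**
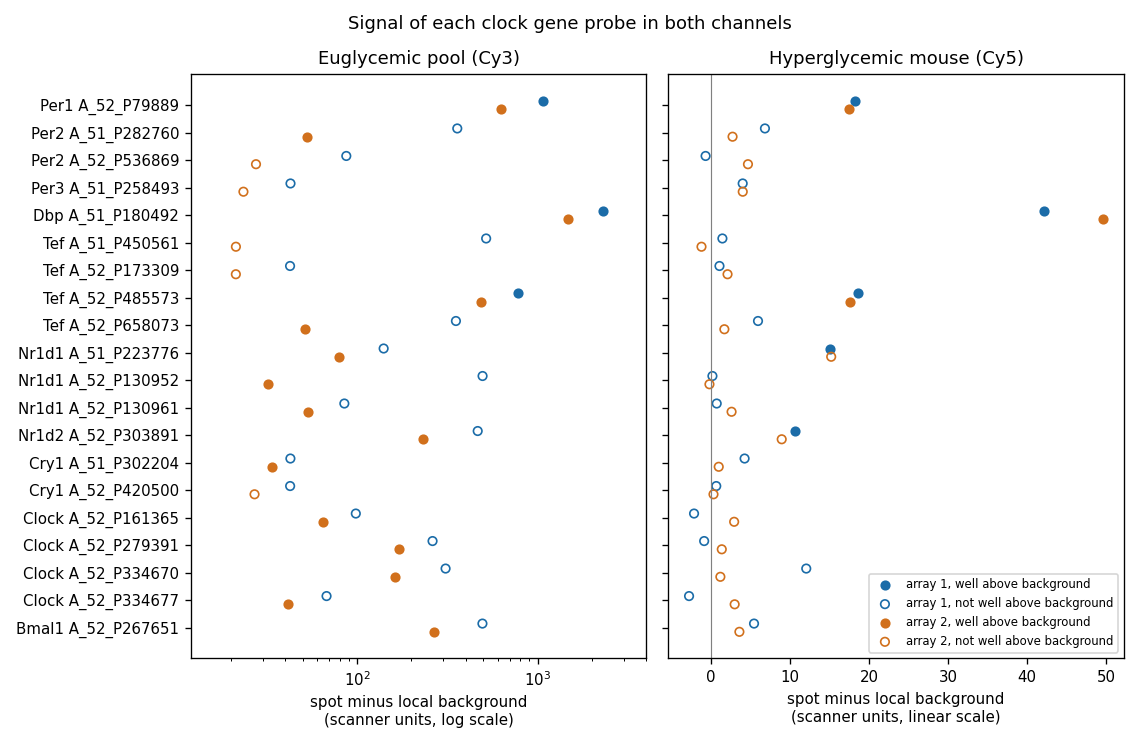
Signal of each of the 20 clock gene probes above its local background, in scanner units, in the euglycemic pool (Cy3, left, log axis) and in the hyperglycemic mouse (Cy5, right, linear axis). Filled points were well above background and open points were not; in Cy5 the filled points belong to Per1, Dbp and 1 Tef probe on both arrays and to 1 Nr1d1 probe and the Nr1d2 probe on array 1.

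Ratios of 3 kinds are given, each as log2 of the hyperglycemic mouse over the pool. The scanner-signal fit used background-corrected (normexp, offset 50) and loess-normalized spot signals and tested 8815 probes, those that on each array rose well above background with either dye. The processed ratios are those of the scanning software, and the deposited ratios are the same values for the 5072 gene probes of the series' value table. The offset adds 50 units to both channels, and the clock probes stood between -2.78 and 49.6 units above background in Cy5. The scanner-signal ratios of these dim probes are thus drawn toward 0. Of the clock probes, 5 entered the scanner-signal fit, 1 each for Per1, Dbp, Tef, Nr1d1 and Nr1d2. The value table holds 3 of the 20, those of Per1, Dbp and Tef, and not the other 17.

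No clock probe was called higher or lower in the scanner-signal fit at a limma adjusted p under 0.05 (0 of 5), where 4.74% of all 8815 probes were called higher and 0.488% lower. At an unadjusted p under 0.05 the fit had 1 clock probe, Dbp, and 1713 probes in all. In the deposited ratios 3 of 3 were called higher, beside 25.1% of all 5072 probes called higher and 18.4% lower. The median ratio of the clock probes was 0.18 against -0.03 for all probes in the scanner-signal fit, and 0.87 against 0.06 in the deposited ratios. All 5072 gene probes of the table were among the 5077 that rose well above background with each dye on each array, and Cy5 was the dimmer channel, so a probe with a dim pool signal was in it only with enough Cy5 signal. Both fits read the same arrays. Ratios above 0 on both arrays were found for 31.6% of all probes in the scanner-signal fit and 44.7% in the deposited ratios, and for every clock probe tested, 5 and 3. Since the filter let in a dim probe more easily when its Cy5 signal was high, these counts are not read as a result. When the processed ratios of the 8815 probes were fitted, 0 of the 5 clock probes were called, and 0% of all probes in either direction. Per1, Dbp and Tef had the same ratios there as in the value table, with limma adjusted p of 0.0764, 0.0841 and 0.0825. With these ratios, their calls thus held only over the 5072 probes of the table. With no background correction 4 of the 5 were called higher and 0 lower (Per1, Dbp, Tef and Nr1d1), beside 13.4% and 10.4% of all probes. With an intensity trend in the variance 1 was called higher and 0 lower, beside 7.56% and 5.83%. That one was the Nr1d1 probe, which passed the filter on array 1 through Cy5 alone, so its calls are not read as a result. With median centring in place of loess 4 were called lower and 0 higher, beside 97.8% and 0.0113%.

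Dbp, a PAR-bZIP activator and a well known output of the loop, had 1 probe (mm8 chr7:45577937-45577996, plus strand). It stood 2298 and 1475 units above background in the pool channel of arrays 1 and 2, and 42.1 and 49.6 units in the hyperglycemic channel. The processed signals were higher in the hyperglycemic mouse on both arrays, 1.90-fold and 1.64-fold. The deposited ratio was 0.82 ± 0.15 (SD, n = 2; limma adjusted p = 0.00632), which is 1.77-fold higher. The scanner-signal ratio was 0.22 on array 1 and 0.33 on array 2, a mean of 0.28 ± 0.08 (limma adjusted p = 0.213, 95% interval 0.03 to 0.52), and median centring turned it to -2.25. With median centring the median of the 8815 probes tested was -2.01. Values with median centring are thus read from that median, and Dbp stood at -0.24 from it. The probes of the value table were put into 10 bins of brightness, and in the bin of Dbp the median ratio was -0.10 and the upper quartile 0.34, both below Dbp.

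Tef, a related PAR-bZIP factor, was well above background with 1 of its 4 probes (mm8 chr15:81653753-81653812, plus strand). That probe read 775 and 485 units above background in the pool channel and 18.5 and 17.5 units in the hyperglycemic channel. The hyperglycemic mouse was 3.32-fold higher on array 1 and 1.87-fold higher on array 2 in processed signals, so the arrays differed in size but not in direction. The deposited ratio was 1.32 ± 0.58 (n = 2; limma adjusted p = 0.0036), 2.49-fold higher, against 0.70 for the median and 1.00 for the upper quartile of equally bright probes. These form the dimmest bin of the value table, which holds dim probes only with enough Cy5 signal. The Tef ratio was 1.73 on array 1 and 0.91 on array 2. The scanner-signal ratio was 0.18 ± 0.06 (limma adjusted p = 0.375, 95% interval -0.06 to 0.42). With median centring it was -1.23, or 0.78 above the median of all probes tested. The other 3 Tef probes were not well above background in Cy5 on either array, and in Cy3 only 1 of them was, on array 2. Their scanner-signal ratios lay between -0.06 and 0.03. A Tef probe among them (mm8 chr15:81648641-81650746) covers 2106 bases of the genome, more than the 60 of most clock probes. The Tef value is thus that of 1 probe, and the transcript forms behind the 4 probes were not told apart.

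Per1, a Period repressor that responds quickly to light and hormones, had 1 probe (mm8 chr11:68925571-68925630, plus strand). It stood 1077 and 630 units above background in the pool channel and 18.3 and 17.5 units in the hyperglycemic channel. Both mice gave nearly the same processed ratio, 1.79-fold and 1.86-fold higher than the pool. The deposited ratio was 0.87 ± 0.04 (n = 2; limma adjusted p = 0.00466), 1.82-fold higher. Per1 lay in the dimmest bin of the value table, where the median ratio was 0.70 and the quartiles were 0.40 and 1.00, so its value was between the quartiles. The scanner-signal ratio was 0.10 ± 0.0011 (limma adjusted p = 0.59, 95% interval -0.13 to 0.34). With median centring it was -1.57, which is 0.44 above the median of all probes tested.

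Nr1d1, the REV-ERB alpha receptor that represses Bmal1, gave the highest processed ratio of the clock probes, with 1 of its 3 probes (mm8 chr11:98585302-98585804, minus strand, spanning 503 bases). It read 140 and 79.3 units above background in the pool channel and 15.03 and 15.2 units in the hyperglycemic channel. The processed ratio was 9.18-fold higher on array 1, where the software put a surrogate in place of the dim pool signal, and 5.24-fold higher on array 2, where Cy5 was not well above background. Each of these folds thus rests on 1 channel that was not well above background. The scanner-signal ratio was 0.14 on array 1 and 0.43 on array 2, a mean of 0.28 ± 0.20 (limma adjusted p = 0.264, 95% interval -0.0044 to 0.57), and it was 0.07 with median centring. With the intensity trend it was the clock probe called higher (limma adjusted p = 0.00152). As it passed the filter on array 1 through the hyperglycemic channel alone, this call is not read as a result. The other 2 Nr1d1 probes, nearer the start of the gene, were at -0.01 and -0.06 in the scanner signals, with Cy5 within 2.59 units of background. In RefSeq the end of Nr1d1 overlaps Thra on the facing strand, and whether the deviating probe lies in that overlap was not determined.

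Nr1d2, its REV-ERB beta relative, had 1 probe (mm8 chr14:16997805-16997864, minus strand). The pool channel stood 466 and 232 units above background and the hyperglycemic channel 10.6 and 8.94 units. The processed ratio was 3.46-fold higher on array 1 and 1.36-fold higher on array 2, with the pool channel not well above background on array 1 and the hyperglycemic channel not on array 2. The scanner-signal ratio was 0.09 ± 0.03 (limma adjusted p = 0.633, 95% interval -0.14 to 0.33), between the quartiles of equally bright probes. With median centring it was -0.70, which is 1.31 above the median of all probes tested. On array 1 both Nr1d probes passed the filter through the hyperglycemic channel alone, so their ratios there are not independent of the filter.

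**Figure D2:**
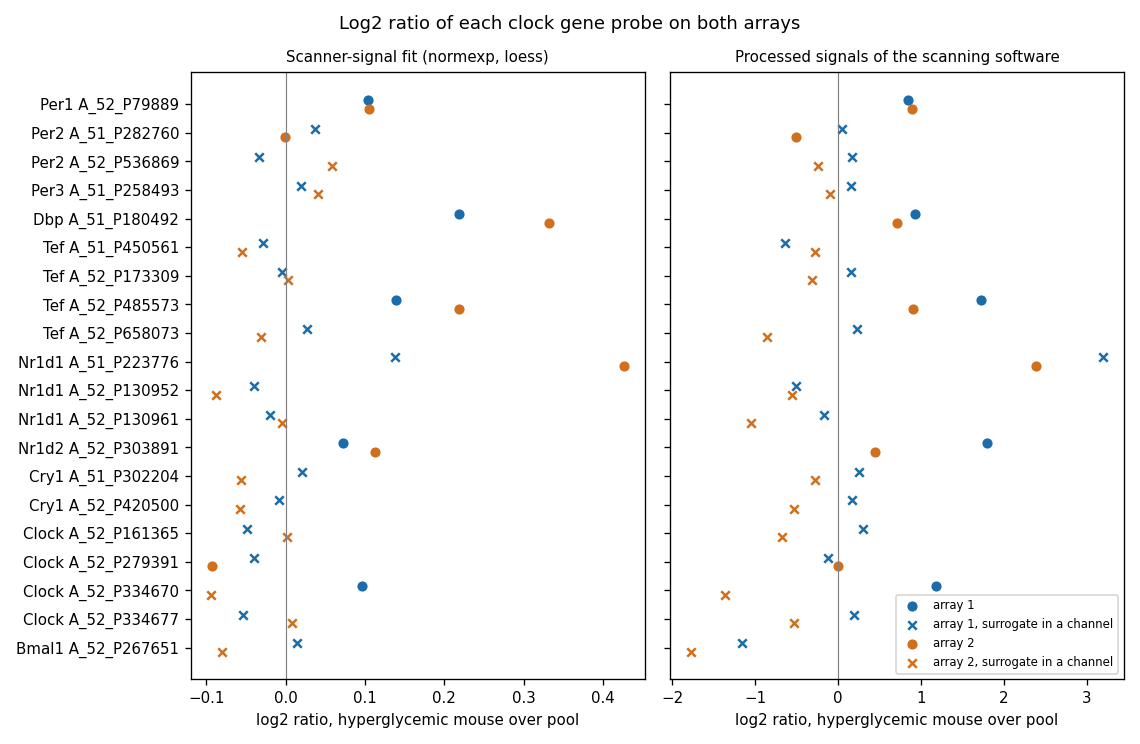
Log2 ratio of the hyperglycemic mouse over the pool for each clock gene probe on arrays 1 and 2, from the scanner-signal fit (left) and from processed signals (right); crosses mark spots where the scanning software put a surrogate in a channel. Per1, Dbp, 1 Tef probe, 1 Nr1d1 probe and Nr1d2 lie above 0 on both arrays in both panels. With median centring only the Nr1d1 probe of these stays above 0, where the median of all probes tested is -2.01. The other 15 probes lie between -0.09 and 0.10 on the left.

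The positive arm and the remaining repressors could not be measured in the hyperglycemic channel. All 15 other probes, which include those of Bmal1, Clock, Cry1, Per2 and Per3, were not well above background in Cy5 on either array, and 5 of them in neither channel. Their Cy5 spots lay between -2.78 and 12.04 units around the local background, and the software used a Cy5 surrogate on at least 1 array for each of the 15. Their scanner-signal ratios lay between -0.09 and 0.10, 1 above 0 on both arrays, 5 below 0 on both and 9 mixed. No fold is given for these probes.

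Bmal1, the activator that pairs with Clock, was the one of these with the lowest processed ratios (mm8 chr7:113104645-113104704, plus strand). Its pool signal stood 495 and 266 units above background, well above it on array 2 alone, and its hyperglycemic signal 5.44 and 3.58 units. The processed ratio was -1.16 and -1.78, lower in both mice, with a surrogate for Cy5 on both arrays. The scanner-signal ratio was 0.01 on array 1 and -0.08 on array 2. The 4 Clock probes did not share a direction: in processed signals array 1 ran from -0.12 to 1.18 and array 2 from -1.36 to 0.0046. Both Cry1 probes and both Per2 probes were above 0 on array 1 and below 0 on array 2 in processed signals, as was the Per3 probe. For each of these probes the software used a surrogate in both channels on array 1. On array 2 it used a surrogate in Cy5 alone, and none for 1 Per2 probe. These signs are therefore not read as a difference between the mice.

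The mean over Per1, Per2, Per3, Dbp, Tef, Nr1d1 and Nr1d2, with the probes of a gene averaged first, minus that over Bmal1 and Clock was 0.07 on array 1 and 0.17 on array 2 in scanner signals (mean 0.12 ± 0.07, n = 2). It was 1.11 and 1.45 in processed signals, and with median centring -0.30 and 0.04. No test was made of this difference, and it uses probes that were not well above background.

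The plot against equally bright probes sets each clock probe beside its bin of brightness. In the scanner-signal fit Dbp, Tef, Per1 and Nr1d1 lay above the upper quartile of the probes in their own bin of brightness and Nr1d2 below it. The places of Nr1d1 and Nr1d2 are not independent of the filter, which they passed on array 1 through Cy5 alone. In the deposited ratios Dbp and Tef lay above the upper quartile of their bins and Per1 below it. With median centring Per1, Dbp, Tef and Nr1d2 turned below 0, where 97.8% of all probes tested were called lower. From the median of those probes Dbp stood at -0.24, and Per1, Tef and Nr1d2 at 0.44, 0.78 and 1.31. The part of brightness in these ratios was not tested.

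**Figure D3:**
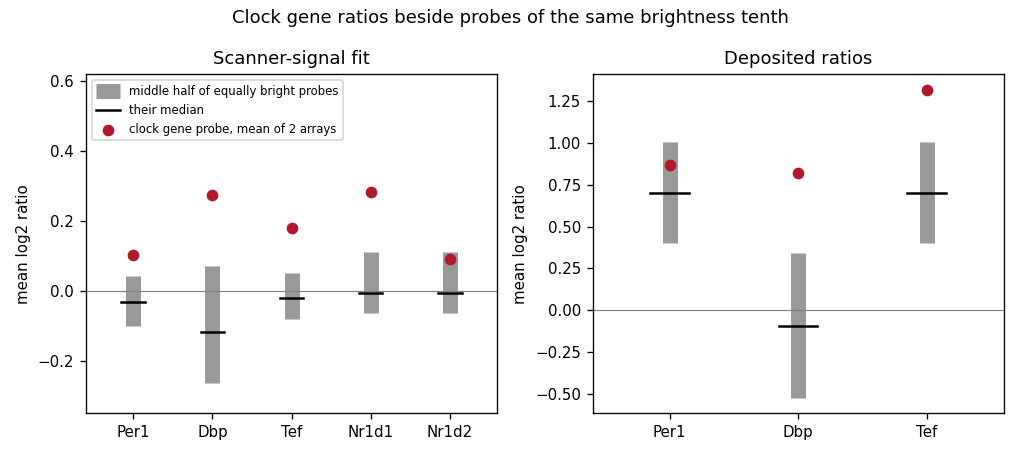
Mean log2 ratio over both arrays (red points) of the clock gene probes in the scanner-signal fit (left) and in the deposited ratios (right), beside the range between quartiles (grey bars) and the median (black lines) of all probes in the same bin of brightness. On the right Dbp (0.82) and Tef (1.32) lie above the grey bar and Per1 (0.87) lies in it. With median centring these 3 probes turn below 0, where the median of all probes tested is -2.01.

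Of 22 other clock genes (Cry2, the ROR receptors, Hlf, Nfil3, kinases, ubiquitin ligases and outputs), all had probes, 40 in all. In the scanner-signal fit 0 of 9 probes tested were called in either direction, with a median of 0.02, and 0 of the 9 had an unadjusted p under 0.05; with median centring 9 of 9 were called lower, as were 97.8% of all probes. In the deposited ratios 1 of 4 was called higher and 0 lower, beside 25.1% and 18.4% of all probes. That one was Klf10, a Kruppel-like factor under clock control, at 1.25 and 1.60 on arrays 1 and 2 (1.43 ± 0.24, n = 2; limma adjusted p = 0.00124), 2.69-fold higher. Its scanner-signal ratio was 0.32 ± 0.28 (limma adjusted p = 0.263). Nfil3, a bZIP repressor that competes for D-boxes, had 1 of 2 probes tested, at 0.21 ± 0.11 in scanner signals (limma adjusted p = 0.324). The processed ratio of that probe was 1.61 and 1.35. On array 1 it passed the filter through Cy5 alone, so these ratios are not independent of the filter. The casein kinase Csnk1d, which phosphorylates Period proteins, had 4 probes that went different ways. Of the 2 tested, 1 was at -0.22 ± 0.05 (limma adjusted p = 0.283) and 1, not well above background in Cy5 on either array, at -0.17 ± 0.14 (limma adjusted p = 0.443). Of the Csnk1d probes that did not pass the filter, 1 was at 0.06 and 0.41 on arrays 1 and 2 (processed ratios 0.99 and 1.62) and 1 at 0.0048 and 0.03. Its relative Csnk1e was at 0.02 ± 0.01 (limma adjusted p = 0.902). The deacetylase Sirt1 was at 0.02 ± 0.03, the NAD-synthesizing enzyme Nampt at -0.08 ± 0.11 and the E-box repressor Bhlhe40 at 0.03 ± 0.0006. Hlf, the third PAR-bZIP factor, was chosen for mention after its values were seen. Its probe was not well above background in Cy5, and its processed ratio was 2.86 on array 1, with a surrogate for the pool, and 2.08 on array 2.

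In the value table the genes nearest to Dbp by their pair of ratios were Bmyc, Ranbp2 and Nenf, to Per1 Sfrs10, Cdkn2d and Ctgf, and to Tef Arcn1 and Nfib, by Euclidean distance over 2 arrays (0.02 to 0.07), with names as in the array design. With 2 values per gene many genes lie close, and 37 lay within 0.1 of Dbp, 37 of Per1 and 2 of Tef.

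The labelled tissue was checked against marker genes. Cd3d, Cd3g and Lck of T cells, Cd79b and Ms4a1 of B cells and Ccl19 of node stroma rose well above background with each dye on each array, and Cd3e, Cd79a, Madcam1 and Pdpn did not. In the deposited ratios T cell markers were lower for 3 of 3 probes (median -1.21), B cell markers for 2 of 3 (median -0.63) and Ccl19 for 2 of 2 (median -0.93), while in the scanner-signal fit 1 of 3, 0 of 3 and 0 of 2 were called and the median of Ccl19 was 0.88. Exocrine pancreas markers were higher for 6 of 6 probes (median 0.80) and red cell markers for 7 of 7 (median 1.17), and in the scanner-signal fit for 6 of 6 (median 5.20) and 6 of 7 (median 3.11). With median centring the medians of these 2 lists lay at -0.05 and -0.15 from the median of all probes tested. Their summed signals above background were 37976 and 42919 units in the hyperglycemic channel against 841532 and 434404 in the pool channel for the exocrine list, and 6650 and 9264 against 188715 and 112303 for red cells. For T cells the sums were 83.6 and 147 against 24599 and 14494, and for B cells 239 and 319.7 against 36762 and 21639. For Ccl19, Pdpn and Madcam1 together they were 755 and 992 against 113823 and 68802. Adipocyte sums were 670 and 774 against 76099 and 42531. Adipocyte markers were called lower for 1 of 4 probes (Cfd, -1.63 ± 0.03) and higher for 0, with a median of -0.16, and Adipoq and Plin1 were not in the table. In the scanner-signal fit 1 of 5 was called higher (a Fabp4 probe, 0.67 ± 0.24) and 1 lower (Cfd, -0.93 ± 0.26). The part of these cell types in the clock gene ratios was not tested. In whole tissue, fewer cells of a type and less RNA per cell cannot be told apart.

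**Figure D4:**
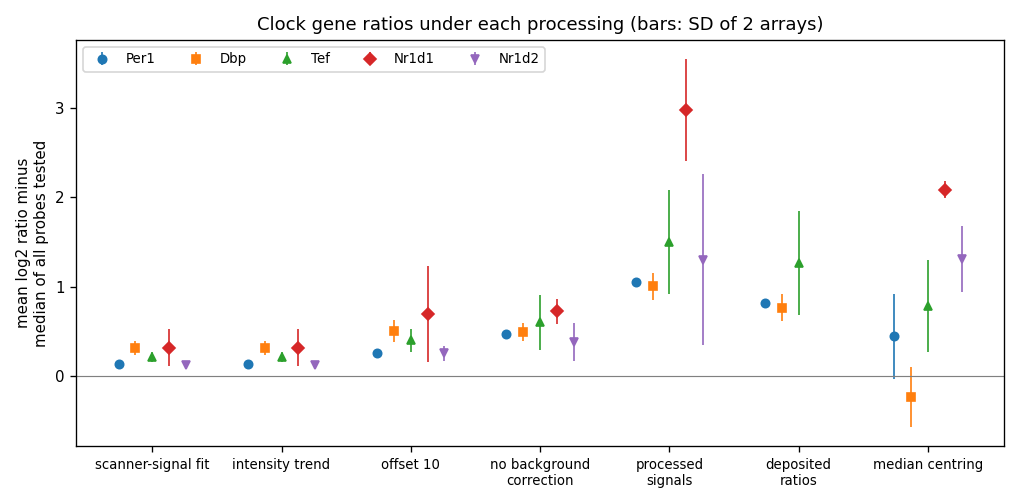
Mean log2 ratio of 5 clock gene probes minus the median of all probes tested, under 7 processings (bars: SD over 2 arrays). Relative to that median, the probes lie above 0 in each processing except Dbp with median centring (-0.24). The deposited ratios hold no Nr1d1 or Nr1d2 probe. These Nr1d probes passed the filter on array 1 through Cy5 alone, so their places are not independent of the filter. All processings read the same 2 arrays.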

How the data were processed

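RNA was measured on 2 two-colour arrays (n = 2 hyperglycemic mice, each against the same pool). Per the file headers, scans of Agilent design 014868 were read with Feature Extraction 10.7.3.1, and spot and background columns hold intensity values with no normalization. The processed intensity values were, per the file headers, made by subtracting a fitted spatial surface in place of the local background, with multiplicative detrending and a surrogate for spots too dim to measure, and the dyes were balanced by a correction with LOWESS settings. The deposited log10 ratio column is Cy5 over Cy3 of these. The deposited value table holds log2 ratios for 5098 rows, 5072 of them gene probes, equal to the log10 ratios times 3.32 (r = 1.00). Its scale and direction follow from this, its column medians are 0.08 and 0.03, and how its probes were chosen is not given in the sources used here.

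For the scanner-signal fit, spots marked as outliers (338 and 184) were left out, control spots had weight 0 in loess, and background was corrected by normexp (offset 50) and ratios by loess (span 0.3). Spots of a probe were averaged. The mean log2 ratio of a probe was set against 0 with limma 3.58.1 in R 4.3.3, two-sided, with 1 residual degree of freedom, adjusted by Benjamini-Hochberg over all probes kept. Every adjusted p comes from limma. Tested on simulated data, the fit returned ratios closer to 0 than those put in. In the real data some marker lists went the other way. Exocrine and red cell medians were 5.20 and 3.11 in this fit against 0.80 and 1.17 in the deposited ratios. The median of Ccl19 changed sign, 0.88 against -0.93. The arrays' log ratios correlated at 0.84 over the probes kept. The number of arrays limits the precision. Every clock probe is described; other clock genes were named if called, then up to 6 by brightness. A marker gene and a gene near Tef are not reported here. Members, lists and rules were chosen with earlier results of these data known. Sequences are from RefSeq (GRCm38.p6) and probe positions are mm8; exon and UTR positions of the probes were not analysed here. Alternatives were other backgrounds, scalings, filters, variance models and single arrays.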

Additional observations from a re-analysis of the deposited data

How the results depend on the processing

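The median of the clock probes tested (0.18) was 0.34 with a normexp offset of 10, 0.45 with no background correction, 1.12 in processed signals, 0.87 in the deposited ratios, -1.23 with median centring, and -0.0016 with no filter (20 probes), and ran from 0.14 to 0.22 over single arrays. The median over all 20 clock probes in processed signals with no filter, chosen after seeing the data, was -0.0813. The count of clock probes called higher (0) was 4 with no background correction (13.4% of all probes), 3 in the deposited ratios (25.1%) and 1 with an intensity trend (7.56%), and the count called lower (0) was 4 with median centring (97.8%). With median centring Per1 was at -1.57, Dbp at -2.25, Tef at -1.23 and Nr1d2 at -0.70, against a median of -2.01 for all probes tested. The output genes minus Bmal1 and Clock (0.12) gave 0.25 with offset 10, 0.30 with no background correction, 1.28 in processed signals with no filter and -0.13 with median centring, and 0.07 to 0.17 over single arrays. Other clock probes called higher (0) numbered 2 with no background correction (Nfil3 and Klf10), 1 in the deposited ratios and 1 with an intensity trend (both Klf10), and 9 were called lower with median centring, against the same shares of all probes. The Nfil3 call is not read as a result, since that probe passed the filter on array 1 through Cy5 alone. The causes were not tested. Counts could not be recomputed on single arrays, which leave no residual degree of freedom. No paired analysis was possible because both mice share a single pooled control. Signal over background in Cy5 limits 15 of the 20 clock probes on both arrays, and 1 Nr1d1 probe and the Nr1d2 probe on array 2.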
